A study of Mus musculus with 3 samples.

Results

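Described here are 9 potassium channel genes of 3 families: the KCNQ genes Kcnq3 and Kcnq5, the ether-a-go-go genes Kcnh1, Kcnh2, Kcnh5, Kcnh7 and Kcnh8, and the sodium-activated channel genes Kcnt1 and Kcnt2. They were taken by symbol, are 9 of the 32285 genes in the count tables, and all 9 passed the filter on low counts in the comparison of nucleus types. The counts come from single-nucleus RNA sequencing (10x Genomics) of 3 libraries of brain nuclei from uninjured C57BL/6 mice. The neurons carried a label transported backwards along their axons from the lumbar cord, fluorescent tissue was cut from sagittal slices and frozen, and nuclei were sorted by flow cytometry. The libraries form 1 group, labelled as biological replicates, and no injured or treated library was analysed here. The tracer, the age of the mice and the number of mice per library are not stated in the labels, so the p-values measure only the spread between these libraries. The comparison is therefore between types of nuclei that come from the same preparations.

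Voltage-gated potassium channels set how readily a neuron fires and how quickly it recovers. KCNQ subunits form the M-current, a slow current that opens near threshold and is shut when Gq-coupled muscarinic receptors use up membrane phosphoinositides. Kcnh1 and Kcnh5 encode eag channels, Kcnh2 and Kcnh7 encode erg channels, which inactivate fast and close slowly, and Kcnh8 encodes an elk channel. Kcnt1 and Kcnt2 encode Slack and Slick, which open with intracellular sodium and contribute to the hyperpolarisation that follows bursts of spikes.

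Of 17517 barcodes, 9027 had 1000 genes or more and no more than 5% of UMIs from mitochondrial genes. These nuclei were typed in a fixed order by CPM, the share of a gene or sum of genes in all UMIs on the usual scale, with at least 2 UMIs at each gate. Cortical nuclei had at least 300 CPM of Tox (4126 nuclei). Red nucleus nuclei had at least 150 CPM of Ttc6, Chst9 and Rreb1 together (332), and hypothalamic nuclei at least 150 CPM of Sim1, or of Ros1 and Rfx2 together (149). Hindbrain nuclei had at least 200 CPM of Meis1 and Meis2 together (2782), and 1638 nuclei stayed untyped. Markers outside the gates were read on plain library totals, and most were highest in the type they name. The cortical factor Fezf2 stood at 27.7 ± 2.72 CPM in cortical nuclei and at most 6.09 CPM in the other 3 types. The red nucleus factor Pou4f1 stood at 17.6 ± 8.82 CPM in red nucleus nuclei and at most 1.26 CPM in the other 3 types, and the hypothalamic factor Otp at 30.7 ± 5.80 CPM in hypothalamic nuclei and at most 0.255 CPM in the other 3. In hindbrain nuclei Lhx4 stood at 25.4 ± 3.20 CPM (at most 6.57 CPM in the other 3) and Hoxb3 at 9.52 ± 1.05 CPM (at most 1.96 CPM). Hoxa5 and Hoxb5 were near 0 there, at 0.166 and 0.205 CPM, and Hoxb5 was at 0.681 CPM in hypothalamic nuclei. Slc17a6, listed for hindbrain and red nucleus nuclei, did not separate them, at 99.6 CPM in hindbrain, 113 CPM in red nucleus and 102 CPM in hypothalamic nuclei, and Crh, listed as hypothalamic, was higher in hindbrain (9.96 CPM) than in hypothalamic nuclei (4.45 CPM). Microglial markers summed to 52.9 to 85.9 CPM in hindbrain and 20.5 to 37.1 CPM in cortical libraries, oligodendrocyte markers to 25.1 to 34.7 and 55.3 to 68.6 CPM, and astrocyte markers to 0.719 to 1.86 and 0.874 to 2.08 CPM. Their part in the results was not tested. Of the cortical nuclei 41.7% also passed a later gate, and 8.59% of the hindbrain nuclei carried transcripts of a list of cortical genes at 200 CPM or more. Median depth was 8270, 19493 and 14388 UMIs per nucleus in replicates 1, 2 and 3, the sums per type and library held from 367083 to 45768766 UMIs, and 6 barcodes occurred in more than 1 library.

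Levels below are CPM of these sums on the scale of the edgeR fit (TMM), as mean ± SD over 3 libraries. A gene was called between types at an adjusted p under 0.05 and a log2 fold change of 1 or more in size. Against red nucleus nuclei, 3 of the 9 genes were higher in cortical nuclei, 1 was lower and 5 were not called. Of all 17198 tested genes 20.5% were called in that comparison, 8.18% higher and 12.4% lower. Against hypothalamic nuclei the counts were 4 higher, 1 lower and 4 not called (20.6% of all genes called, 10.0% higher and 10.6% lower), and against hindbrain nuclei 3 higher, 2 lower and 4 not called (20.9%, 8.31% higher and 12.6% lower). In hindbrain nuclei 2 genes were higher and 1 lower than in red nucleus nuclei (5.28% of all genes called, 2.20% higher and 3.08% lower), and 3 were higher and 1 lower than in hypothalamic nuclei (5.53%, 2.87% higher and 2.66% lower). Only Kcnq3 was called between red nucleus and hypothalamic nuclei, where it was higher in the former (7.78%, 4.19% higher and 3.59% lower). The 3 comparisons with cortical nuclei share the cortical sums, and those with hindbrain nuclei share the hindbrain sums. On plain totals without TMM the median of all genes moved by -0.37, -0.57 and -0.42 (log2) in the cortical comparisons with red nucleus, hypothalamic and hindbrain nuclei, and by -0.15 and -0.20 in those of hindbrain and of red nucleus over hypothalamic nuclei. The share of calls that were higher went with that from 39.8% to 19.6%, from 48.6% to 17.6% and from 39.8% to 17.7% in the cortical comparisons. In those of hindbrain and of red nucleus over hypothalamic nuclei it went from 51.9% to 37.9% and from 53.8% to 35.5%. Hindbrain over red nucleus nuclei moved by 0.05, with a share from 41.6% to 46.5%. Small differences that involve cortical or hypothalamic nuclei thus depend on the scaling.

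**Figure D1:**
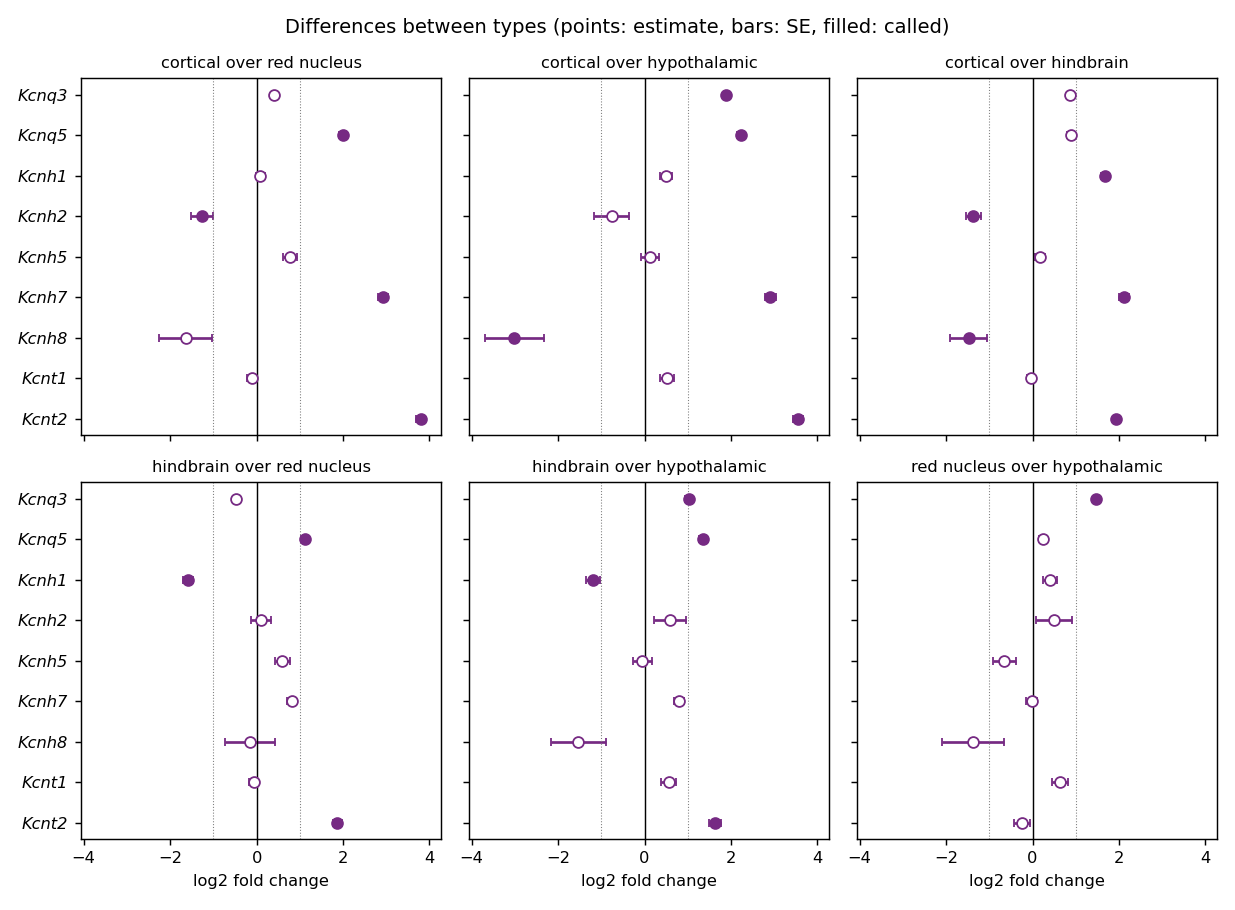
Log2 fold change of each of the 9 genes (rows) in the 6 comparisons of types (panels), with points for the estimate, bars for its SE, filled points for called genes and dotted lines at the fold threshold of 1 on the log2 scale. Kcnt2 and Kcnh7 lie farthest to the right in the cortical comparisons, at 3.80 and 2.93 over red nucleus nuclei, and Kcnh8 has the widest bars.

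The erg gene Kcnh7 (ENSMUSG00000059742) lies on chromosome 2 from 62693414 to 63184287, minus strand. Kcnt2 (ENSMUSG00000052726) lies on chromosome 1 from 140246158 to 140612067, plus strand, and Kcnq5 (ENSMUSG00000028033) on chromosome 1 from 21398403 to 21961942, minus strand (GENCODE M21, GRCm38). These 3 genes were called higher in cortical than in both red nucleus and hypothalamic nuclei, and they varied together over the 12 sums of type and library: Pearson's r of log2(CPM + 1) was 0.98 for Kcnq5 and Kcnt2, 0.97 for Kcnh7 and Kcnt2 and 0.93 for Kcnq5 and Kcnh7. The 3 genes were grouped by calls from the same sums, so a high r follows in part from that choice. The sums also share libraries and differ in depth, so r is a description. Their promoters, the 250 bases before the RefSeq start (GRCm38.p6), are shown 5′ to 3′ on the gene's strand. The counts measure nuclear RNA, and a link between these levels and the promoters was not tested. Capitals mark a GC box (GGGCGG, or CCGCCC on the other strand) or a CCAAT box (CCAAT, or ATTGG on the other strand).
Kcnh7 promoter, chr2:63184288-63184537, minus strand: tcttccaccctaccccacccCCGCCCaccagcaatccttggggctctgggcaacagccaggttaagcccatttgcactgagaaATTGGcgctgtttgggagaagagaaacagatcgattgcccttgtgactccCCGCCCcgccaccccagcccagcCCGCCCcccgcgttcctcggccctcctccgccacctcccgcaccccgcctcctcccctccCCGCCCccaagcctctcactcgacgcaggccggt
Kcnt2 promoter, chr1:140245468-140245717, plus strand: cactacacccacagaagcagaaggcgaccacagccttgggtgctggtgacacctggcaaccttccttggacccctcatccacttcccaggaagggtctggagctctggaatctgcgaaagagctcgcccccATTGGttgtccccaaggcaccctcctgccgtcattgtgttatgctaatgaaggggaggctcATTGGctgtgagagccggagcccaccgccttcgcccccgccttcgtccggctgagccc
Kcnq5 promoter, chr1:21961943-21962192, minus strand: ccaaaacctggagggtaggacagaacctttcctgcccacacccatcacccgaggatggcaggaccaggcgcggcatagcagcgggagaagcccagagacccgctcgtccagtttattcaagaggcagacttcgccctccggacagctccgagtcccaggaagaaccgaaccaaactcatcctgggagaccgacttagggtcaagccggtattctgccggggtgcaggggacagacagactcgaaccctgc
The Kcnh7 promoter held 4 GC boxes and 1 CCAAT box, that of Kcnt2 held 2 CCAAT boxes, and that of Kcnq5 neither. The TATA motif TATAAA was in none of these 3 windows. The 3 windows shown have no motif in common. Of 32851 RefSeq promoters of the same length, 32.7% held a GC box, 33.8% a CCAAT box and 12.4% TATAAA on either strand. The GC content of the windows shown was 67.6%, 61.6% and 60.8%, above the median of all promoters, 52.4%. RefSeq promoters were matched for 7 of the 9 genes. The RefSeq start of Kcnt2 lies upstream of the GENCODE start. Kcnq5 has a further RefSeq entry that is not shown, with 1 CCAAT box and a GC content of 44.4%, below the median. With that entry in place of the one shown, all 3 genes would have a CCAAT box.

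Kcnh7 was high in cortical nuclei, intermediate in hindbrain nuclei and low in the other types. Its level was 3528, 2754 and 3582 CPM in the cortical sums of replicates 1, 2 and 3, and 846, 667 and 753 CPM in the hindbrain sums. It was 450.1, 479.9 and 353 CPM in red nucleus nuclei and 422, 417 and 459.7 CPM in hypothalamic nuclei. Every cortical library lay above every other sum, the hindbrain libraries lay above the remaining types, and red nucleus and hypothalamic libraries overlapped. The cortical level exceeded that in red nucleus nuclei 7.64-fold (log2 fold change 2.93, SE 0.12, edgeR adjusted p = 7.37e-13), that in hypothalamic nuclei 7.53-fold (2.91, SE 0.13, adjusted p = 2.11e-12) and that in hindbrain nuclei 4.35-fold (2.12, SE 0.11, adjusted p = 2.35e-11). Hindbrain nuclei stood 0.81 and 0.79 (log2) above red nucleus and hypothalamic nuclei, short of the fold threshold. When nuclei that passed more than 1 gate were left out, the difference from red nucleus nuclei was called, at 1.17.

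The Slick gene Kcnt2 was also highest in cortical and next in hindbrain nuclei. Cortical sums held 504, 391 and 489 CPM and hindbrain sums 133, 106 and 123 CPM in replicates 1, 2 and 3. Red nucleus sums held 37.8, 25.6 and 36.5 CPM and hypothalamic sums 41.2, 33.5 and 42.6 CPM. The order was cortical, hindbrain, then the other types, with overlap only between hypothalamic and red nucleus libraries. Cortical nuclei were 13.9-fold higher than red nucleus nuclei (log2 fold change 3.80, SE 0.10, edgeR adjusted p = 3.36e-15), 11.7-fold higher than hypothalamic nuclei (3.55, SE 0.12) and 3.83-fold higher than hindbrain nuclei (1.94, SE 0.07). Hindbrain nuclei were 3.64-fold higher than red nucleus nuclei (1.87, SE 0.10, edgeR adjusted p = 4.73e-11) and 3.07-fold higher than hypothalamic nuclei (1.62, SE 0.14, edgeR adjusted p = 2.55e-08).

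Its relative Kcnt1, the Slack gene (chromosome 2, 25863734 to 25918273), was called in none of the 6 comparisons by edgeR or DESeq2. In 3 of them the edgeR adjusted p was under 0.05, those of cortical (0.0311), hindbrain (0.0217) and red nucleus (0.0173) over hypothalamic nuclei. In each, Kcnt1 was lower in hypothalamic nuclei but short of the fold threshold (0.52, 0.56 and 0.63). It stood at 50.4, 55.3 and 50.7 CPM in cortical nuclei, 46.9, 57.6 and 55.5 CPM in hindbrain nuclei, 42.6, 69.1 and 54.5 CPM in red nucleus nuclei and 31.5, 41.1 and 35.8 CPM in hypothalamic nuclei. The first 3 types overlapped and the hypothalamic libraries lay under all of them. On plain totals cortical over hypothalamic nuclei went from 0.52 to -0.05. Cortical and hindbrain nuclei differed by -0.04 (log2, SE 0.08), and by -0.46 without TMM. Per kilobase of gene, the ratio of Kcnt2 to Kcnt1 was 1.33 ± 0.239 in cortical nuclei, 0.342 ± 0.0746 in hindbrain nuclei, 0.165 ± 0.0384 in hypothalamic nuclei and 0.0958 ± 0.0387 in red nucleus nuclei (SD, n = 3). The libraries of cortical nuclei (1.05 to 1.49) did not overlap those of hindbrain nuclei (0.273 to 0.421), and only the hypothalamic and red nucleus ranges overlapped. A ratio within a library does not depend on the scaling between types.

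**Figure D2:**
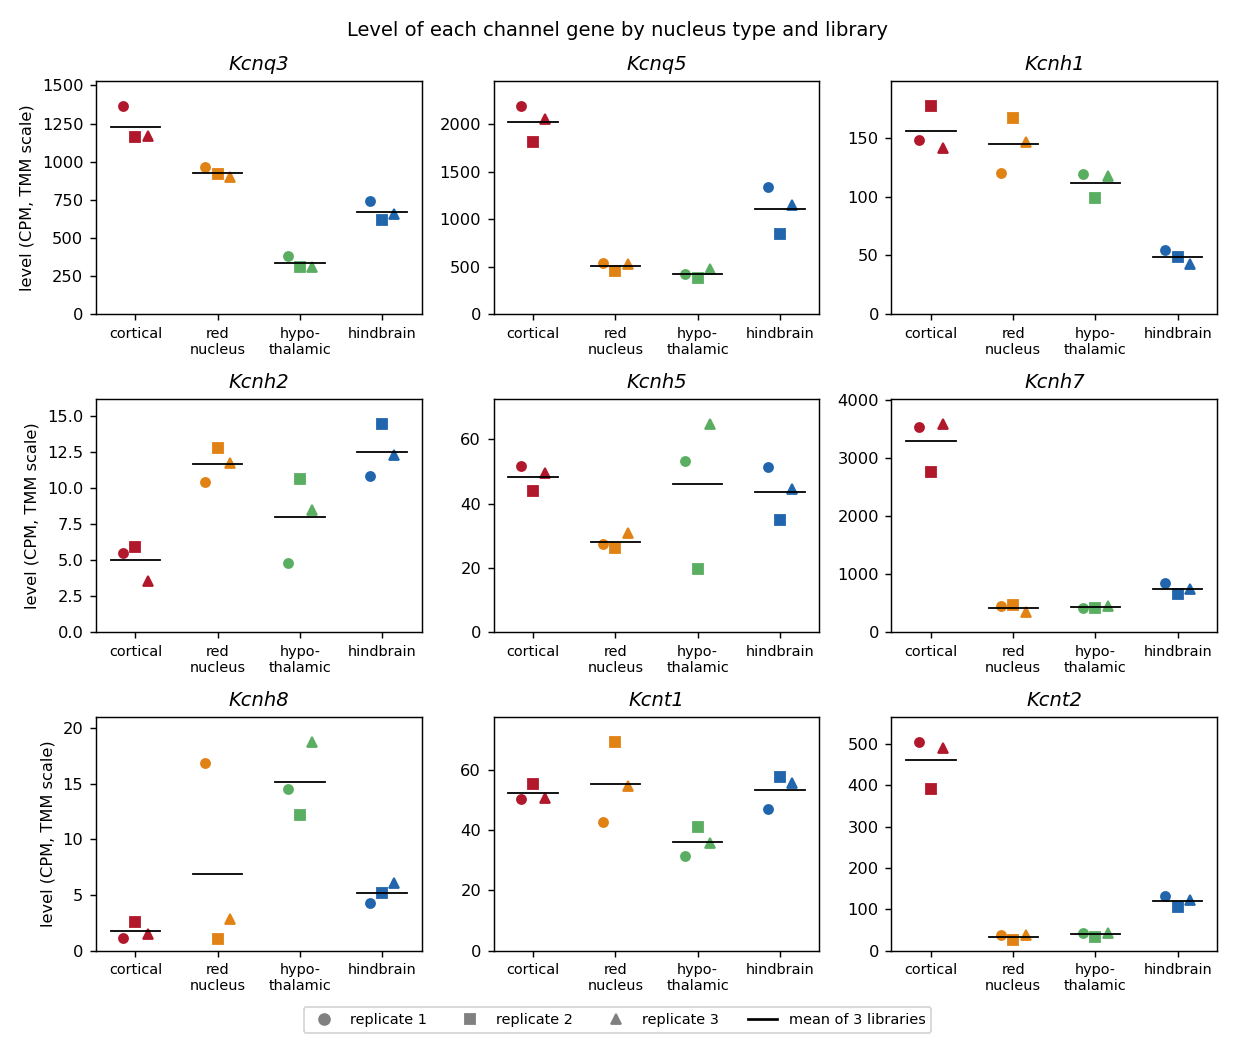
Level in CPM on the TMM scale (vertical axis, starting at 0) of each gene in the 4 types (horizontal axis), with 1 symbol per library and a line at the mean of 3 libraries. Kcnh7, Kcnt2 and Kcnq5 are highest in all 3 cortical sums, Kcnh1 is lowest in all 3 hindbrain sums, and a single red nucleus library lifts Kcnh8 there.

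Free RNA in a suspension of nuclei is counted in every droplet, so 5 cortical genes (Slc17a7, Neurod6, Emx1, Crym and Fezf2) were measured the same way on plain totals. Outside cortical nuclei they stood at 8.93% to 22.9% of their cortical level in red nucleus nuclei, 4.10% to 23.6% in hypothalamic nuclei and 15.3% to 29.4% in hindbrain nuclei. On that scale Kcnh7 stood at 16.7%, 19.6% and 30.7% of its cortical level, and Kcnt2 at 9.29%, 12.6% and 34.8%. Both lay within the range of the cortical genes in red nucleus and hypothalamic nuclei and just above it in hindbrain nuclei. In the 45 inhibitory hindbrain nuclei Kcnh7 stood at 3.01%. The part of free RNA in these levels was not tested further. Kcnq5 lay above the range in each type, at 32.4%, 31.5% and 73.0%, and Kcnq3 at 97.2%, 40.2% and 73.1%. Without the nuclei of other types that carried cortical transcripts, cortical over hindbrain nuclei gave 2.24 (log2) for Kcnh7 and 2.14 for Kcnt2.

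Kcnq5, an M-current subunit, stood at 2191, 1817 and 2057 CPM in cortical nuclei and at 1336, 844 and 1152 CPM in hindbrain nuclei. It was 539, 454 and 532 CPM in red nucleus nuclei and 427, 382 and 478 CPM in hypothalamic nuclei. Cortical libraries lay above all others and hindbrain libraries above the remaining types, which overlapped. The cortical level was 3.97-fold that of red nucleus nuclei (log2 fold change 1.99, SE 0.09, edgeR adjusted p = 3.79e-12) and 4.69-fold that of hypothalamic nuclei (2.23, SE 0.10, edgeR adjusted p = 2.96e-12). Against hindbrain nuclei it was 0.88 (SE 0.08), under the fold threshold, with 0.46 on plain totals and 1.01, a call, without replicate 1. Hindbrain nuclei were 2.16-fold higher than red nucleus nuclei (1.11, SE 0.09), which dropped to 0.99 without replicate 1 and lost the call, and 2.54-fold higher than hypothalamic nuclei (1.35, SE 0.10).

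Kcnq3, which assembles with other KCNQ subunits (chromosome 15, 65986387 to 66286642, minus strand), followed another order. Its level was 1365, 1159 and 1166 CPM in cortical nuclei and 965, 919 and 899 CPM in red nucleus nuclei. Hindbrain nuclei held 740.2, 619 and 661 CPM and hypothalamic nuclei 386, 309 and 308 CPM. No neighbouring types overlapped on the TMM scale, so there red nucleus nuclei ranked second for Kcnq3 and not for Kcnq5. On plain totals the cortical (916 to 1063 CPM) and red nucleus libraries (919 to 956 CPM) overlapped. Kcnq3 was called higher than in hypothalamic nuclei in cortical (log2 fold change 1.89, SE 0.08, edgeR adjusted p = 3.3e-12), red nucleus (1.48, SE 0.09, edgeR adjusted p = 1.2e-10) and hindbrain nuclei (1.02, SE 0.09, edgeR adjusted p = 2.03e-08). The last of these calls rests on the fold threshold: it gave 0.94 with DESeq2, 0.99 without the library as a block, 0.96 without replicate 3 and 0.87 without TMM. Cortical over red nucleus nuclei was 0.40 and not called, and 0.03 without TMM. The ratio of Kcnq5 to Kcnq3 per kilobase was 0.877 ± 0.0555 in cortical, 0.872 ± 0.127 in hindbrain, 0.692 ± 0.122 in hypothalamic and 0.292 ± 0.0267 in red nucleus nuclei. Red nucleus libraries (0.263 to 0.316) lay under all others, the lowest of which was 0.590.

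The eag gene Kcnh1 (chromosome 1, 192190774 to 192510159) was marked by a low level in hindbrain nuclei. It stood there at 54.3, 48.8 and 43.0 CPM, against 148, 177 and 141 CPM in cortical, 119.8, 167 and 147 CPM in red nucleus and 119, 98.9 and 117 CPM in hypothalamic nuclei. No hindbrain library reached any library of another type, while cortical and red nucleus libraries overlapped. Hindbrain nuclei were lower than cortical nuclei 3.21-fold (cortical over hindbrain 1.68, SE 0.10, edgeR adjusted p = 1.35e-10). They were lower than red nucleus nuclei 3.02-fold (-1.59, SE 0.11, edgeR adjusted p = 2.63e-09) and than hypothalamic nuclei 2.29-fold (-1.19, SE 0.16, edgeR adjusted p = 1.02e-05). The direction held without TMM (1.26, -1.54 and -1.34).

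Its close relative Kcnh5, the other eag gene (chromosome 12, 74897220 to 75177332, minus strand), was called in none of the 6 comparisons of types, by edgeR or DESeq2. The edgeR adjusted p was under 0.05 for cortical (0.00134) and hindbrain (0.011) over red nucleus nuclei. Both differences were short of the fold threshold (0.77 and 0.60). In red nucleus over hypothalamic nuclei (-0.65) only the unadjusted p was under 0.05. Each of these comparisons had the lower level in red nucleus nuclei. Red nucleus nuclei had 27.3, 26.1 and 30.9 CPM, below the 51.6, 43.8 and 49.4 CPM of cortical and the 51.4, 34.9 and 44.5 CPM of hindbrain nuclei without overlap. Hypothalamic nuclei were uneven, at 53.4, 19.8 and 64.7 CPM, and without replicate 2 red nucleus nuclei were called lower than hypothalamic nuclei, at -1.04. Thinned to 2000 UMIs per nucleus, Kcnh5 was called higher than in red nucleus nuclei in cortical (1.00) and hindbrain nuclei (1.07). The ratio of Kcnh1 to Kcnh5 per kilobase was 1.00 ± 0.200 in hindbrain nuclei (0.847 to 1.23), under the libraries of cortical (2.51 to 3.54), red nucleus (3.84 to 5.61) and hypothalamic nuclei (1.59 to 4.39).

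The erg gene Kcnh2 (chromosome 5, 24319589 to 24351604, minus strand), also known from the heart, and the elk gene Kcnh8 (chromosome 17, 52602709 to 52979194) were rare and lower in cortical than in hindbrain nuclei. Kcnh2 stood at 5.54, 5.96 and 3.57 CPM in cortical nuclei, 10.4, 12.8 and 11.8 CPM in red nucleus nuclei, 4.85, 10.7 and 8.51 CPM in hypothalamic nuclei and 10.9, 14.5 and 12.3 CPM in hindbrain nuclei. Cortical libraries lay under all red nucleus and hindbrain libraries and overlapped the hypothalamic ones. Cortical nuclei were lower than red nucleus nuclei by -1.26 (log2, SE 0.25, edgeR adjusted p = 0.000627) and than hindbrain nuclei by -1.37 (SE 0.17, edgeR adjusted p = 5.65e-06). The first gave -0.98 and no call when nuclei were thinned to 2000 UMIs, and the difference from hypothalamic nuclei was called only without TMM, at -1.33.

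Kcnh8 stood at 1.15, 2.59 and 1.52 CPM in cortical nuclei and 4.23, 5.19 and 6.04 CPM in hindbrain nuclei. Hypothalamic nuclei held 14.6, 12.2 and 18.7 CPM, from 25 UMIs in all, and every one of these libraries lay above the cortical and hindbrain ones. Of the 8 hypothalamic UMIs in replicate 2, 6 (75%) were in 1 nucleus. Cortical nuclei were lower than hypothalamic nuclei by -3.01 (log2, SE 0.68, edgeR adjusted p = 0.0022) and than hindbrain nuclei by -1.48 (SE 0.43, edgeR adjusted p = 0.0138). The second call was lost with DESeq2 (-1.50), without the library as a block (-1.52) and without replicate 3 (-1.20). In red nucleus nuclei replicate 1 held 16.9 CPM and replicates 2 and 3 held 1.02 and 2.81 CPM. Of its 21 UMIs in replicate 1, 12 (57.1%) were in 1 nucleus. Without replicate 1 red nucleus nuclei were called lower than hypothalamic nuclei, at -3.01, and cortical over red nucleus nuclei went from -1.64 to 0.16.

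Compared per kilobase of gene, Kcnh7 was the highest of the 9 genes in cortical nuclei (6.70 ± 0.944 CPM per kb), followed by Kcnq3 (4.10 ± 0.389) and Kcnq5 (3.59 ± 0.336). In red nucleus nuclei Kcnq3 was highest, at 3.09 ± 0.113 CPM per kb, and Kcnt1 (1.02 ± 0.244), Kcnq5 (0.903 ± 0.0838) and Kcnh7 (0.871 ± 0.136) followed within their spread. In hindbrain nuclei Kcnq3 (2.24 ± 0.205), Kcnq5 (1.97 ± 0.441) and Kcnh7 (1.54 ± 0.182) led. Hypothalamic nuclei had Kcnq3 at 1.11 ± 0.148 CPM per kb, Kcnh7 at 0.882 ± 0.0475 and Kcnq5 at 0.762 ± 0.0856. Kcnh8 was lowest in every type, at most 0.0403 ± 0.00881 CPM per kb. The length is that of the whole gene with introns, and whether introns were counted is not given in the sources used here, so the order of genes within a type would change if only exons were counted. Kcnq3, Kcnh1, Kcnh2, Kcnh7 and Kcnt2 overlap at least 1 other gene of the count tables on the opposite strand, and how strand was used is not given either.

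Within hypothalamic nuclei, the 92 that passed the Sim1 gate alone were compared with the 57 that passed the Ros1 and Rfx2 gate. Any nucleus that passed both gates was placed among the 57. Sim1 is a transcription factor of the paraventricular hypothalamus. Of the 9 genes, 3 were higher in Sim1-gate nuclei and 6 not called, beside 4.09% of 12974 tested genes called (2.32% higher and 1.77% lower). Kcnh1 stood at 223, 187 and 169 CPM in Sim1-gate nuclei and 11.6, 20.2 and 36.0 CPM in Ros1 and Rfx2 nuclei, an 8.70-fold difference without overlap (log2 fold change 3.12, SE 0.36, edgeR adjusted p = 5.39e-07). In the same fit Kcnh1 stood at 145 to 180 CPM in cortical libraries, which overlap the Sim1-gate ones, and at 42.9 to 56.7 CPM in the main hindbrain group, above the Ros1 and Rfx2 ones. Kcnh5 stood at 80.8, 31.7 and 99.1 CPM against 29.0, 10.1 and 6.00 CPM (2.29, SE 0.50, edgeR adjusted p = 0.00443), from 64 and 9 UMIs. The libraries again did not overlap, but the 31.7 and 29.0 CPM that lay closest rest on 10 and 5 UMIs. Kcnt2 stood at 71.3, 47.5 and 58.9 CPM against 11.6, 23.6 and 18.0 CPM (1.58, SE 0.39, edgeR adjusted p = 0.0123), from 52 and 12 UMIs. On plain totals these Kcnt2 levels were 17.4% and 5.40% of the cortical one, inside the ranges of the 5 cortical genes there, 5.83% to 24.6% and 0% to 29.8%. Kcnh5 lost its call without replicate 3 (1.57), and Kcnt2 without replicate 1 (1.27) or replicate 3 (1.56). Kcnh7 differed by 0.96 (SE 0.21, edgeR adjusted p = 0.00346), under the fold threshold, and was called without replicate 1 (1.02), without replicate 2 (1.22) and without nuclei carrying cortical transcripts (1.04). Kcnq5 was called without replicate 2 (1.29). Each gate held from 15 to 37 nuclei per library, which limits the precision.

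Hindbrain nuclei held 45 inhibitory nuclei, 325 V2a nuclei, gated on genes that include Lhx3 and Lhx4, and 2412 others. V2a cells are excitatory interneurons and reticulospinal neurons of the brainstem. None of the 9 genes was called by edgeR or DESeq2 between V2a and other hindbrain nuclei, beside 1.73% of 12974 genes (0.208% higher and 1.52% lower), and 3 had an unadjusted p under 0.05. Among them, Kcnt2 was 0.62 (log2, SE 0.10, edgeR adjusted p = 0.000178) and Kcnh7 0.48 (SE 0.14, edgeR adjusted p = 0.045) lower in V2a nuclei, both under the fold threshold. Inhibitory nuclei (Gad1, Gad2, Slc32a1 and Slc6a5) numbered 20, 3 and 22 in replicates 1, 2 and 3 and were not tested. Their Kcnh7 level was 72.4, 47.0 and 114 CPM, from 50 UMIs, against 928, 723 and 804 CPM in other hindbrain nuclei and 680.4, 440.4 and 646 CPM in V2a nuclei. Their Kcnq5 level was 1727, 2989 and 2093 CPM, from 1217 UMIs, against 1371, 836 and 1111 CPM in others and 1564, 992 and 1458 CPM in V2a nuclei. The inhibitory libraries thus lay under all others for Kcnh7 and above all others for Kcnq5. Kcnt2, in contrast to Kcnh7, stood at 115 ± 10.6 CPM there, between the 83.9 ± 19.7 CPM of V2a and the 129 ± 14.9 CPM of other nuclei. Kcnh7 there stood at 3.01% of its cortical level on plain totals, and the 5 cortical genes at 0% to 23.1% with a median of 2.29%, from 12 UMIs.

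**Figure D3:**
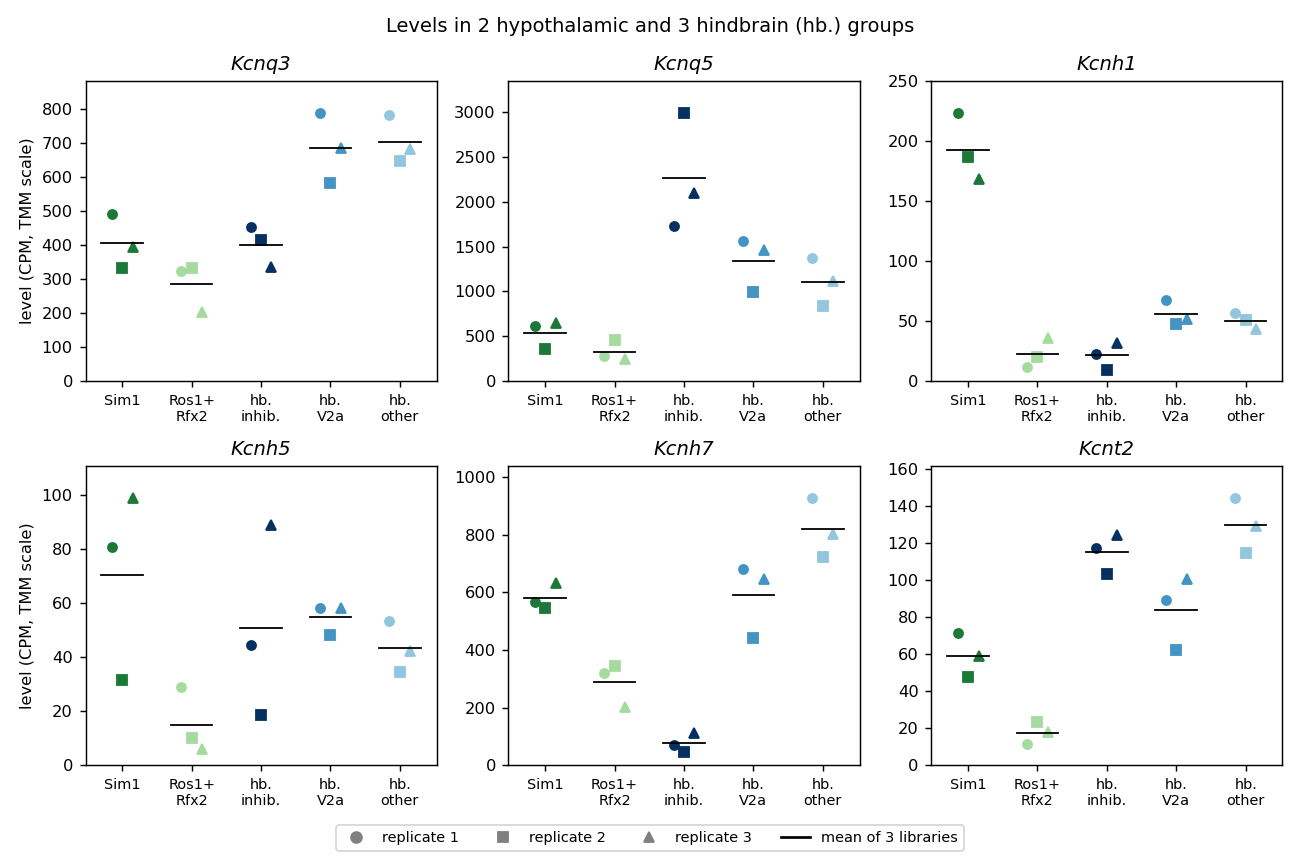
Level in CPM on the TMM scale of the subtype fit (vertical axis, starting at 0) of 6 of the genes in the Sim1-gate and the Ros1 and Rfx2 hypothalamic nuclei and in inhibitory, V2a and other hindbrain (hb.) nuclei, with 1 symbol per library and a line at the mean. Kcnh1 separates the hypothalamic groups in all 3 libraries, and inhibitory hindbrain nuclei are lowest for Kcnh7 and highest for Kcnq5.

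The spread over single nuclei was measured after each nucleus was thinned to 5000 UMIs, leaving out 168 cortical, 25 red nucleus, 23 hypothalamic and 312 hindbrain nuclei that were shallower. In cortical nuclei the tenth, fiftieth and ninetieth percentiles of Kcnh7 were 5, 12 and 19 UMIs per nucleus, and in hindbrain nuclei 0, 3 and 9. Those of Kcnq5 were 3, 7 and 13 in cortical and 0, 4 and 13 in hindbrain nuclei, so the ninetieth percentile was the same in both. The squared coefficient of variation beyond counting error, which is 0 when all nuclei have the same level, was 0.136 ± 0.0277 for Kcnq5 in cortical nuclei and 0.666 ± 0.0647 in hindbrain nuclei (SD over 3 libraries). It was 0.860 ± 0.181 in red nucleus and 1.62 ± 0.317 in hypothalamic nuclei. For Kcnh7 it was 0.127 ± 0.0202, 0.827 ± 0.155, 1.32 ± 0.276 and 0.581 ± 0.148 in the same order of types. For Kcnq3 it was 0.126 ± 0.0129, 0.274 ± 0.0121, 0.276 ± 0.104 and 0.525 ± 0.0952. In all 3 genes every cortical library lay under every library of the other types, and Kcnq3 varied less over hindbrain nuclei than Kcnq5 or Kcnh7. How broad each gate is, and its part in the spread, was not tested.

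**Figure D4:**
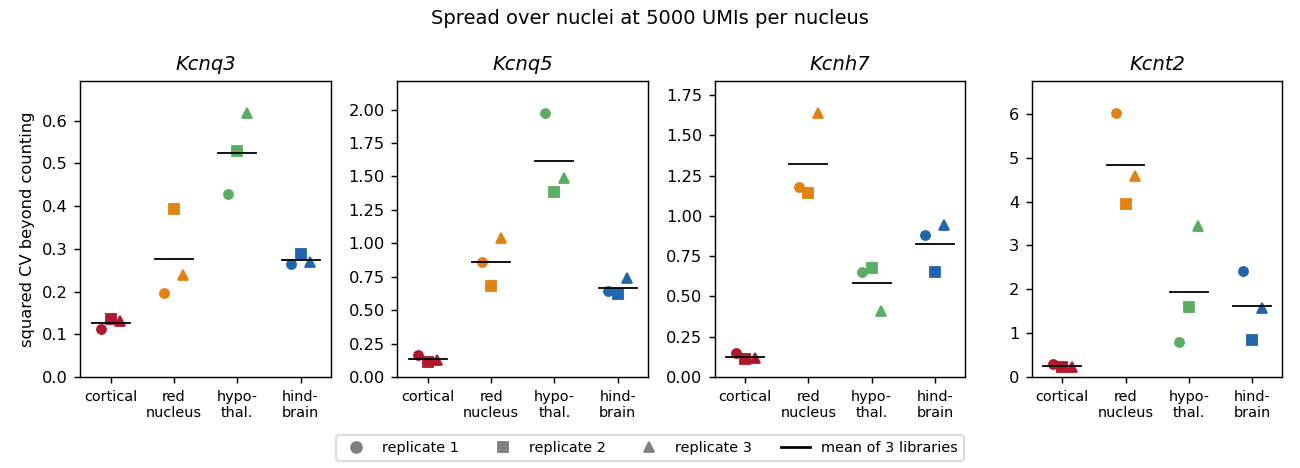
Squared coefficient of variation beyond counting error over nuclei thinned to 5000 UMIs (vertical axis, starting at 0, no unit) of 4 genes in the 4 types, with 1 symbol per library and a line at the mean. All 3 cortical libraries lie lowest in each panel, and red nucleus nuclei are highest for Kcnt2, at 4.85. That value rests on a mean of only 0.123 Kcnt2 UMIs per nucleus.

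At that depth a Kcnt2 UMI was found in 75.7% ± 3.32 of cortical nuclei and 35.5% ± 2.88 of hindbrain nuclei, against 18.2% ± 1.04 of hypothalamic and 8.87% ± 2.92 of red nucleus nuclei. Unthinned, the shares were 92.2%, 51.5%, 27.6% and 24.6%. Slc17a7, the vesicular glutamate transporter of cortical neurons, was found at the thinned depth in 12.5% ± 6.68 of hindbrain, 13.5% ± 6.20 of hypothalamic and 8.52% ± 3.94 of red nucleus nuclei, types that mainly use Slc17a6 instead. In cortical nuclei the Slc17a7 share was 40.8%, below that of Kcnt2, so equal amounts of cortical RNA would not give both genes the same share and no order is read from these values.

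Among 6 related channel genes, all tested, 3 were higher and 1 lower in cortical than in red nucleus nuclei, 2 higher and 2 lower than in hypothalamic nuclei, and 2 higher and 2 lower than in hindbrain nuclei. Over all genes 8.18%, 10.0% and 8.31% were higher and 12.4%, 10.6% and 12.6% lower in these comparisons. On plain totals 1 related gene was higher and 1 lower, then 2 and 3, then 1 and 2, in the same order. The median log2 fold change of the 6 genes on the TMM scale was 0.92, -0.09 and 0.48, beside -0.05, 0.02 and -0.05 over all genes. Kcnma1, the calcium-activated BK channel related to Kcnt1 and Kcnt2, was higher by 1.24, 1.80 and 1.32 than in red nucleus, hypothalamic and hindbrain nuclei (0.87, 1.23 and 0.90 on plain totals, only the second still called), and the elk gene Kcnh3 by 4.56, 3.40 and 3.30, at 37.2 ± 2.02 CPM in cortical nuclei. Another elk gene, Kcnh4, was highest in hypothalamic nuclei, at 10.9 ± 3.61 CPM. Kcnq1 was lower in cortical than in red nucleus (-1.03) and hindbrain nuclei (-1.13), and the erg gene Kcnh6 lower than in hypothalamic (-1.48) and hindbrain nuclei (-1.07).

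Of 19 listed partners and regulators of these channels 13 were tested, and the same 4 were higher and 9 not called in cortical nuclei in each of the 3 comparisons, with medians of 0.58, 0.32 and 0.43 beside -0.05, 0.02 and -0.05 over all genes, of which 8.18%, 10.0% and 8.31% were higher. The G protein genes Gnaq and Gna11 and the phospholipase gene Plcb4 of the same list were among the 9 not called. The receptor gene Chrm3 stood at 1223 ± 113 CPM in cortical nuclei and 142 ± 77.1, 132 ± 23.1 and 257 ± 51.5 CPM in red nucleus, hypothalamic and hindbrain nuclei (3.15, 3.21 and 2.25). Plcb1, a phospholipase that cleaves phosphoinositides, stood at 2965 ± 244 CPM against 417 ± 145, 231 ± 38.9 and 620.5 ± 77.4 CPM (2.87, 3.64 and 2.26), and was also higher in hindbrain than in hypothalamic nuclei (1.38). Chrm1 was higher by 2.71, 1.98 and 2.73 and the phosphoinositide kinase gene Pip5k1c by 1.03, 1.38 and 1.10. On plain totals Chrm1, Chrm3 and Plcb1 were still called in each comparison and Pip5k1c, at 0.66, 0.81 and 0.67, was not. Chrm3 was the only listed gene called between V2a and other hindbrain nuclei, at -1.20.

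Over the 12 sums, the gene most like Kcnt2 among 7026 genes of at least 20 CPM was the cation channel gene Trpc4 (Pearson's r of log2(CPM + 1) 0.993). Kcnh7 was most like Cnksr2 (0.988), Kcnq5 like Neo1 (0.984), a receptor for guidance cues, and Kcnq3 like the AMPA receptor gene Gria3 (0.990). Kcnh1 was most like Rap1gap2 (0.963), Kcnt1 like Gtpbp2 (0.954), Kcnh5 like Trim23 (0.948), Kcnh2 like Adamts10 (0.942) and Kcnh8 like Fbxo36 (0.920). The second genes were Ppp1r16b for Kcnt2 (0.981), Atp9b for Kcnh7 (0.986), Nlgn1 for Kcnq5 (0.978) and Kirrel3 for Kcnq3 (0.990). The sums share libraries and the 4 types set most of the variation, so these values describe likeness over 4 types only.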

How the data were processed

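Single-nucleus RNA of 3 libraries was counted by the authors with Cell Ranger against mm10. The version is 7.0.1 per the submitters' processing notes and 6.1.1 per the file headers, and whether introns or strand were used in counting is not given in the sources used here. What the authors deposited are raw UMI counts for each barcode. The 9 genes, the gates and the gene lists were chosen with earlier results of these data known. The text names the 9 genes, the called genes of 2 lists (6 related channels, 19 partners and regulators) and, for each of the 9, the 2 genes with the highest r.

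UMI counts were summed per library and type, and the 12 sums (367083 to 45768766 UMIs) were fitted with edgeR 4.0.16 in R 4.3.3: quasi-likelihood test, TMM, filterByExpr, type plus library, and 6 contrasts with Benjamini-Hochberg adjustment over all of them (17198 genes each). The library is a block because all types of a library come from the same preparation. Each SE was taken as log2 fold change / sqrt(F). A second fit of 21 sums split hypothalamic and hindbrain nuclei. The fit was tested on simulated data. Promoters came from RefSeq and gene positions from GENCODE M21 (both GRCm38). Python 3.11.15 with numpy 2.4.6, scipy 1.17.1 and pandas 2.3.3 did the rest.

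No doublet caller was run. In its place, nuclei passing more than 1 gate and the 5% of nuclei with the most UMIs were left out as alternatives. Other alternatives were DESeq2 1.42.0, no filter on low counts, no block, each library left out, gates 2 times as high, at least 500 genes, and thinning to 2000 UMIs. Chosen after seeing the data were plain totals without TMM, leaving out nuclei of other types with cortical transcripts, and splits of hindbrain nuclei by 9 genes. Inhibitory hindbrain nuclei were not tested because replicate 2 held 3 of them. Some genes of the lists are not reported here.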

Additional observations from a re-analysis of the deposited data

Results flagged for a closer look

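Replicate 2 held 11094 barcodes, of which 8325 fell outside the limits on genes and mitochondrial UMIs and enter no comparison. Their RNA was still read for the 9 genes, and 8 of them lay above the floor of 3 counts, 0.509 CPM there. Kcnh7 stood at 1224 CPM, Kcnq5 at 709.8 CPM, Kcnq3 at 439.4 CPM and Kcnt2 at 192.2 CPM. Kcnt1 stood at 96.94 CPM, Kcnh1 at 73.85 CPM, Kcnh2 at 26.48 CPM and Kcnh5 at 20.03 CPM, while Kcnh8 was at the floor. No library without labelled neurons was analysed here as a control for these barcodes.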

How the results depend on the processing

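Of 822 values of single genes under the alternatives, 748 kept their direction and side of the thresholds, 24 became called, 14 lost their call and 36 changed sign. All 36 were of differences that were not called. Of 36 levels by type 13 moved by more than their SD on plain totals, and of 36 shares of nuclei with a UMI 29 moved beyond their interval when unthinned. On plain totals the signs that changed were those of Kcnh1 over red nucleus (-0.28) and hypothalamic nuclei (-0.08) and, against hypothalamic nuclei, Kcnt1 (-0.05) and Kcnh5 (-0.45), each in cortical nuclei, and of Kcnh5 in cortical over hindbrain nuclei (-0.25). Kcnh1 in cortical over red nucleus nuclei also gave -0.14 without nuclei of several gates, -0.01 without the 5% of nuclei with the most UMIs, -0.22 with gates 2 times as high and -0.01 when thinned. Kcnh5 in cortical over hypothalamic nuclei gave -0.04 without the top 5% and -0.28 when thinned, in cortical over hindbrain nuclei -0.06 when thinned, and in hindbrain over hypothalamic nuclei 0.01 with higher gates. Kcnh8 gave 0.51 with higher gates in cortical over red nucleus nuclei, and in hindbrain over red nucleus nuclei 0.70, 0.22 and 1.99 without nuclei of several gates, without the top 5% and with higher gates. Kcnt1 in cortical over hindbrain nuclei gave 0.01 without the filter. In red nucleus over hypothalamic nuclei Kcnt2 gave 0.09 with higher gates, and Kcnh7 gave 0.09 with higher gates, 0.08 when thinned and 0.01 without nuclei carrying cortical transcripts. In V2a over other hindbrain nuclei Kcnh2 gave -0.02 with DESeq2, -0.05 without the filter and -0.10 without nuclei carrying cortical transcripts. The cause was not tested.

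With each library left out in turn, Kcnt1 ranged from -0.20 to 0.04 (cortical over red nucleus), -0.05 to 0.01 (cortical over hindbrain) and -0.15 to 0.06 (hindbrain over red nucleus). Kcnh8 ranged from -2.67 to 0.16 (cortical over red nucleus) and -0.77 to 1.55 (hindbrain over red nucleus), Kcnh5 from -0.27 to 0.49 (cortical over hypothalamic) and -0.34 to 0.32 (hindbrain over hypothalamic), and Kcnh7 from -0.16 to 0.14 (red nucleus over hypothalamic). In V2a over other nuclei Kcnh2 ranged from -0.37 to 0.15, Kcnq3 from -0.08 to 0.01 and Kcnt1 from -0.03 to 0.24.

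The count of the 9 genes called between red nucleus and hypothalamic nuclei, 1, was 2 without the filter, without nuclei of several gates, without the top 5% and with higher gates, and ranged from 1 to 2 with a library left out. Between the hypothalamic gates it was 3 and ranged from 1 (without replicate 3) to 5 (without replicate 2). The other 84 of 92 such counts stayed within 1.5 times. Without the library block, Kcnq3 in hindbrain over hypothalamic nuclei (0.99) and Kcnh8 in cortical over hindbrain nuclei (-1.52) lost their calls, and the block changed no other call.

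Depth limits Kcnh8 (25 and 28 UMIs in hypothalamic and red nucleus nuclei) and Kcnh2 (14 UMIs in hypothalamic nuclei). In Ros1 and Rfx2 nuclei it also limits Kcnh5 (9 UMIs), Kcnt2 (12 UMIs) and Kcnh1 (14 UMIs). When nuclei were thinned, Kcnh8 did not pass the filter and has no value.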

Other observations

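The 2782 hindbrain nuclei were split by the level of 9 genes in turn, each at its highest 20% with at least 2 UMIs, which was chosen after the spread of Kcnq5 and Kcnh7 was seen. Nuclei high in Angpt1, a secreted ligand (241 nuclei), had 390.2 ± 33.5 CPM of Kcnh7, against 837 ± 52.5 CPM in the other 2541. Those high in the collagen gene Col25a1 (359) had 446 ± 49.3 CPM, against 849.6 ± 50.8 CPM. The ratio was under 1 in all 3 libraries for both, from 0.424 to 0.549 and from 0.472 to 0.562. Ratios under 1 in all 3 libraries were also seen for Zfhx3 (at most 0.706), Htr2c (0.776), Glra1 (0.782), Nxph1 (0.738) and Pard3b (0.862). Chrm2 (0.796 to 1.04) and Reln (0.918 to 1.20) had ratios on both sides of 1. The Angpt1-high nuclei were deeper, with medians of 8857, 17444 and 13134 UMIs in replicates 1, 2 and 3 against 7445.5, 15059 and 10776, and the part of depth was not tested. Nuclei high in Nxph1, a neurexin ligand, had 77.2 ± 9.54 CPM of Kcnt2 against 140.3 ± 7.14 CPM. They were deeper as well, with medians of 8368, 19479 and 11982 UMIs against 7345.5, 14609 and 10802. Kcnt2 was about as low in Angpt1-high nuclei, at 77.6 ± 3.35 CPM against 132 ± 8.43 CPM. For every other split gene but Reln (ratio 0.898 to 1.05) its ratio was under 1 in all 3 libraries. Nuclei high in the transcription factor gene Zfhx3 had 13.7 ± 6.28 CPM of Kcnh8 against 3.44 ± 0.254 CPM, with a ratio from 1.94 to 6.17. All hindbrain nuclei together held only 199 Kcnh8 UMIs, and 11 of the 80 in replicate 2 (13.8%) were in 1 nucleus. Kcnh8 was also higher in all 3 libraries in Chrm2-high nuclei, with a ratio from 1.45 to 3.31. Kcnq5 moved the other way from Kcnh7 with Angpt1, at 1449 ± 201 CPM against 1128 ± 219 CPM, and the same way with Col25a1, at 919.6 ± 62.0 CPM against 1200.5 ± 225 CPM. These are values with no test, on plain totals (SD, n = 3).

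On plain totals the 1638 untyped nuclei had 1144 ± 120 CPM of Kcnh7 and 209 ± 41.7 CPM of Kcnt2, between the means of cortical and hindbrain nuclei. They had 985.7 ± 84.4 CPM of Kcnq5 and 644 ± 33.7 CPM of Kcnq3, below both means. Kcnh8 stood at 15.7 ± 6.70 CPM there, above both. Of these nuclei 27.8% carried transcripts of the list of cortical genes at 200 CPM or more, and their Fezf2 level was 14.5 ± 1.93 CPM.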
